A study of Mus musculus with 32 samples.

Results

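The T cell receptor complex and its co-receptors were followed in irradiated and untreated tumours through 10 genes chosen by symbol from a table of 55103. They are the CD3 chain genes Cd3e, Cd3d, Cd3g and Cd247, the co-receptor genes Cd4, Cd8a and Cd8b1, the kinase gene Lck, and the adhesion and co-stimulation genes Cd2 and Cd28. All 10 were in the table. A filter on low counts kept 9 of them among the 20474 genes tested, and Cd8b1 was left out by it.

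Bulk RNA sequencing was done on 32 mouse tumours of KPC36, a line named after the KPC model of pancreatic cancer. There were 8 tumours in each of 4 treatment groups: carbon ions (labelled carbon_treated), the untreated controls of that arm (carbon_ctrl), photons (photon_treated) and their own untreated controls (photon_ctrl). Carbon ions are a particle beam and photons are the radiation of conventional radiotherapy. Every tumour came from the same line, and the dose, host strain, age and genotype are not given in the sources used here. Tumours were taken on days 4 and 7 after treatment, controls included, but the labels used here do not say which library is of which day. The title of a library begins with D or M, a letter with no stated meaning: 4 carbon-ion controls and 3 carbon-irradiated libraries begin with D, and all photon-arm libraries begin with M. The labels do not say that the 8 samples of a group came from separate mice, so p-values measure the spread between these samples, which may in part be technical.

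The T cell receptor recognises a peptide held by an MHC molecule but cannot signal alone. It is carried by the CD3 epsilon, delta and gamma chains and by the zeta chain, which is the product of Cd247. CD4 and CD8 bind MHC class II and class I and bring the kinase LCK to the receptor, where it phosphorylates the CD3 and zeta chains. In whole tumour RNA these genes report on T cells, with some exceptions known in mice: Cd8a is also transcribed by a class of dendritic cells, Cd4 by some myeloid cells, and Cd247 and Cd2 by NK cells. Fewer cells of a type and less RNA per cell cannot be told apart in such samples.

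The members were rare transcripts in these tumours. Library totals were 25983694 to 44819131 estimated counts among untreated tumours of the carbon arm, 22777950 to 71645903 after carbon ions, 17954086 to 51288223 among untreated tumours of the photon arm and 13891863 to 48229979 after photons. In the same order, all 10 members together held 228 to 471, 194 to 540, 130 to 719 and 79 to 464 counts per library. The labels call the cells malignant, and the 5 epithelial markers examined (Krt8, Krt18, Krt19, Epcam, Cdh1) summed to 2148 to 4694 CPM (counts scaled by the library total) over the 32 libraries. Macrophage and fibroblast markers were also abundant, so the libraries hold tumour tissue with its stroma.

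Genome positions are those of GRCm38. The genes Cd3g (chr9:44969572-44980431, minus strand), Cd3d (chr9:44981786-44987339, plus strand) and Cd3e (chr9:44998740-45009627, minus strand) lie side by side. The starts of Cd3g and Cd3d face away from each other, 1355 bases apart. Cd8b1 (chr6:71322788-71337494) and Cd8a (chr6:71373427-71379173) are both on the plus strand, with 50.6 kb between their starts. Cd4 is at chr6:124864692-124888221, Cd247 at chr1:165788681-165877277, Cd28 at chr1:60716800-60773359, Lck at chr4:129548344-129573641 and Cd2 at chr3:101275899-101287939. All 10 are protein-coding genes. Cd247 lies across Pou2f1, a gene of the opposite strand with a mean of 68.24 CPM, and the handling of strand in the counting is not given in the sources used here. The photon effect on Pou2f1 was a log2 fold change of 0.06 with an edgeR adjusted p of 0.691.

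RefSeq promoter entries of assembly GRCm38.p6 were found for 6 of the 10 members. The 150 bases before the start are shown for the neighbours Cd3g, Cd3d and Cd3e, whose photon log2 fold changes were all below 0, and for Cd8a, whose change had the opposite sign. The start used is the outermost in the RefSeq and GENCODE annotations, and for Cd3d and Cd3e it lies outside the positions given above. Capitals mark matches on either strand to 6 short motifs of factors active in T cells or of core promoters: AGGAAG for ETS factors, AGATAA for the zinc finger factors of the GATA family, TGTGGT for RUNX factors, CAGGTG for an E-box, CTTTGA for TCF factors and TATAAA for the core promoter element.
Cd3g, chr9:44980432-44980581, minus strand: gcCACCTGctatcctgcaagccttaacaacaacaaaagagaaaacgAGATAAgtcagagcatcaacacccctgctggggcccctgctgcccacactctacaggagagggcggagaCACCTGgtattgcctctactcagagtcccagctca
Cd3d, chr9:44981619-44981768, plus strand: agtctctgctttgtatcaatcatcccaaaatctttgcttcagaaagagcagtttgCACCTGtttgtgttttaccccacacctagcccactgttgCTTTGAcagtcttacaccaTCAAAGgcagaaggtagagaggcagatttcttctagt
Cd3e, chr9:45009664-45009813, minus strand: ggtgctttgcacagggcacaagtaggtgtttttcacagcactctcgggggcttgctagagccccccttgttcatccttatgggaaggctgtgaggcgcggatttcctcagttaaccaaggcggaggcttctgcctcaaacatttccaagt
Cd8a, chr6:71373277-71373426, plus strand: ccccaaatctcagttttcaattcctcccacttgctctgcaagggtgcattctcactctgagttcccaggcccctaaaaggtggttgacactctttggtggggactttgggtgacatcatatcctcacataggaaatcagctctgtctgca
The Cd3g window holds the E-box at 2 places and the GATA motif at 1, and the Cd3d window holds the E-box at 1 place and the TCF motif at 2. The Cd3e and Cd8a windows hold none of the 6. No matches overlap. For the background, 32851 windows of this length were cut at a fixed place in each promoter entry, without that rule for the start. Of these, 10.6% hold the E-box, 5.65% the GATA motif, 7.93% the TCF motif, 19.7% the ETS motif, 8.4% the RUNX motif and 7.57% the core promoter element. A match is only a run of letters and says nothing of binding in these tumours.

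Compared per kilobase of exon in the photon controls, Cd4 was the most abundant member at 1.23 ± 0.285 CPM per kb (SD, n = 8). Lck followed at 0.640 ± 0.179 and Cd2 at 0.583 ± 0.364. Then came Cd3d at 0.326 ± 0.258, Cd3e at 0.275 ± 0.109 and Cd28 at 0.209 ± 0.126 CPM per kb. The lowest were Cd247 at 0.132 ± 0.0481, Cd3g at 0.118 ± 0.0762, Cd8b1 at 0.0860 ± 0.0623 and Cd8a at 0.0546 ± 0.0204 CPM per kb. Cd4 stood above Lck by more than the SD of either gene. Every other step down this order was smaller than the larger SD of its pair. After photons Cd8a was at 0.134 ± 0.0560 CPM per kb, above all members but Cd4, Lck and Cd2, though Cd247 (0.112 ± 0.0339), Cd3e (0.111 ± 0.0459), Cd28 (0.0937 ± 0.0287) and Cd3d (0.0794 ± 0.0575) were within its SD.

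**Figure D1:**
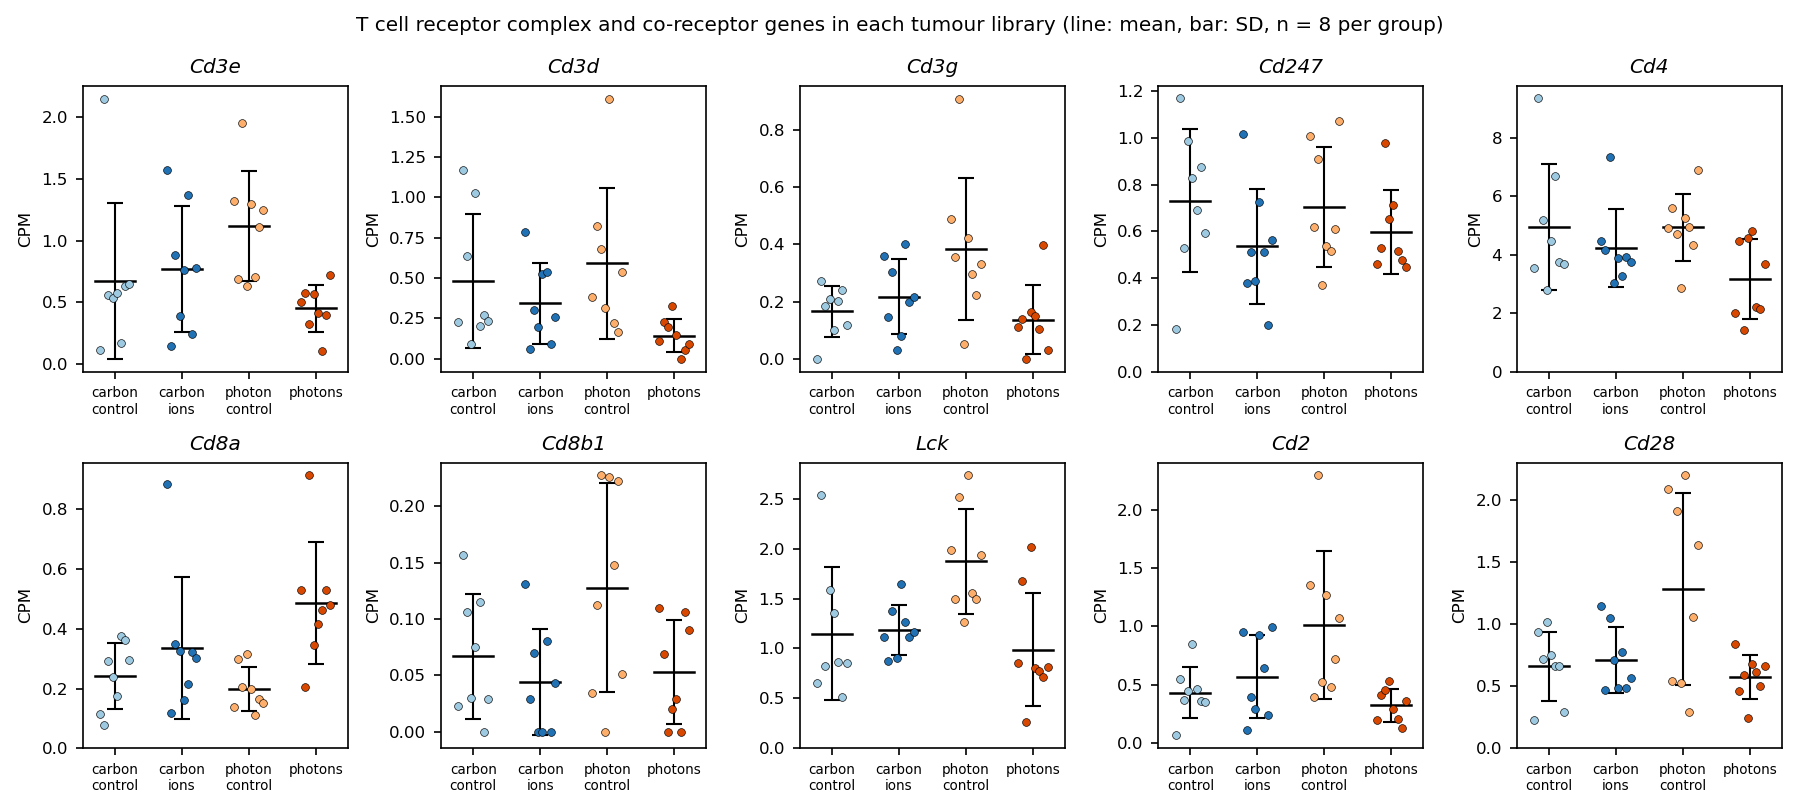
CPM of the 10 genes in each library (points), by group, with the mean (line) and SD (bar, n = 8 libraries per group); each panel has its own linear axis. Against the photon controls, the photon-irradiated libraries lie low for the CD3 chain genes Cd3e, Cd3d and Cd3g and for Lck, Cd2 and Cd28. They lie high for Cd8a. For each of these genes but Cd8a, the photon controls have the highest mean of the 4 groups.

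The photon comparison set photon-irradiated tumours against untreated tumours of the same arm. The title numbers of these groups do not overlap, so the beam cannot be told apart from anything that goes with title number. After photons Cd3d, a CD3 chain, and Cd2, an adhesion receptor, fell 3.98-fold and 3.14-fold, and Cd8a, the alpha chain of CD8, rose 2.35-fold. The other CD3 chains epsilon and gamma, Lck, Cd28 and Cd4 had log2 fold changes below 0 that did not pass the threshold, and Cd247 was closest to 0. Of the 9 tested members, 1 was called higher and 2 lower at an adjusted p under 0.05, beside 3.81% of all tested genes called (1.71% higher, 2.1% lower). Before adjustment 8 of 9 had a p under 0.05, 1 higher and 7 lower, beside 21.5% of all genes (8.87% higher, 12.7% lower). The median log2 fold change was -1.17 over the 9 members and 0.00 over all genes.

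Among the CD3 chains, Cd3e had a lowest, median and highest value of 0.634, 1.18 and 1.95 CPM in the photon controls and of 0.103, 0.460 and 0.720 CPM after photons. All but 1 of the 8 irradiated libraries were below every control. The log2 fold change was -1.28 (SE 0.45) with an edgeR adjusted p of 0.0932, which missed the threshold.

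Cd3d ran from 0.166 through a median of 0.459 to 1.61 CPM in the controls and from 0 through 0.129 to 0.326 CPM after photons. All 8 irradiated libraries were under the control median and 5 were under every control. Cd3d fell by 1.99 on the log2 scale (SE 0.56, 95% interval -3.14 to -0.85), with an edgeR adjusted p of 0.0413. The irradiated libraries held only 0 to 16 counts of it, and the count of 0 in replicate 6 allows up to 0.154 CPM. Such limits take 3 counts as the upper limit that a count of 0 allows and cover counting error only.

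Cd3g ran from 0.0528 through 0.344 to 0.908 CPM in the controls and from 0 through 0.124 to 0.398 CPM after photons. In 7 of 8 irradiated libraries it was below the control median, and replicate 7, at 0.398 CPM, was above it. Its log2 fold change was -1.43 (SE 0.50, adjusted p 0.0912 by edgeR).

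Cd247, the zeta chain, had the estimate closest to 0. It ran from 0.370 through 0.614 to 1.07 CPM in the controls and from 0.450 through 0.521 to 0.979 CPM after photons, and no irradiated library was outside the control range. The log2 fold change was -0.27 (95% interval -0.89 to 0.34) with an edgeR adjusted p of 0.646. Without the 3 libraries under 20000000 counts it was -0.50 (edgeR adjusted p 0.431).

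The co-receptors had log2 fold changes of opposite sign. Cd8a held 0.111, 0.182 and 0.317 CPM (lowest, median, highest) in the photon controls and 0.206, 0.472 and 0.914 CPM after photons. All 8 irradiated libraries were above the control median and 7 were above every control. Cd8a rose by a log2 fold change of 1.23 (SE 0.36, 95% interval 0.51 to 1.96), with an edgeR adjusted p of 0.0453, on 3 to 16 counts per control library and 9 to 24 per irradiated library.

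Cd8b1 encodes the beta chain that pairs with the alpha chain on conventional cytotoxic T cells. It reached at most 10 counts in any library and was at 0 in 7 of 32, which allows from 0.0458 to 0.196 CPM in those libraries. The untreated tumours of the arm averaged 0.128 ± 0.0924 CPM and the photon-irradiated ones 0.0531 ± 0.0462 CPM (SD, n = 8). All 8 irradiated values were under the control median. Without the filter, its log2 fold change was -1.11 (SE 0.66) with an edgeR adjusted p of 0.414.

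Cd4, the co-receptor of helper and regulatory T cells, ran from 2.85 through 4.93 to 6.91 CPM in the photon controls and from 1.44 through 2.95 to 4.80 CPM after photons. The irradiated libraries split into 4 below every control and 4 within the control range. The log2 fold change of -0.63 (SE 0.25) had an edgeR adjusted p of 0.131.

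Lck was at 1.27, 1.75 and 2.74 CPM (lowest, median, highest) in the photon controls and at 0.261, 0.805 and 2.02 CPM after photons. In 6 of 8 irradiated libraries it was below every control, and replicates 2 and 4 were within the control range. Its log2 fold change was -0.90 (SE 0.30) with an edgeR adjusted p of 0.0775.

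Cd2, which binds CD48 on neighbouring cells, ran from 0.394 through 0.896 to 2.29 CPM in the controls and from 0.133 through 0.328 to 0.530 CPM after photons. All 8 irradiated libraries were under the control median and 5 were under every control. Cd2 fell by 1.65 on the log2 scale (SE 0.43, 95% interval -2.52 to -0.78), with an edgeR adjusted p of 0.0265, the smallest of the 9 members. Cd28, the receptor for CD80 and CD86, was spread widely in the controls, from 0.296 through 1.34 to 2.20 CPM, and lay between 0.245 and 0.836 CPM after photons (median 0.603). Its log2 fold change was -1.17 (SE 0.35, adjusted p 0.0534 by edgeR), with 8 of 8 irradiated libraries below the control median.

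**Figure D2:**
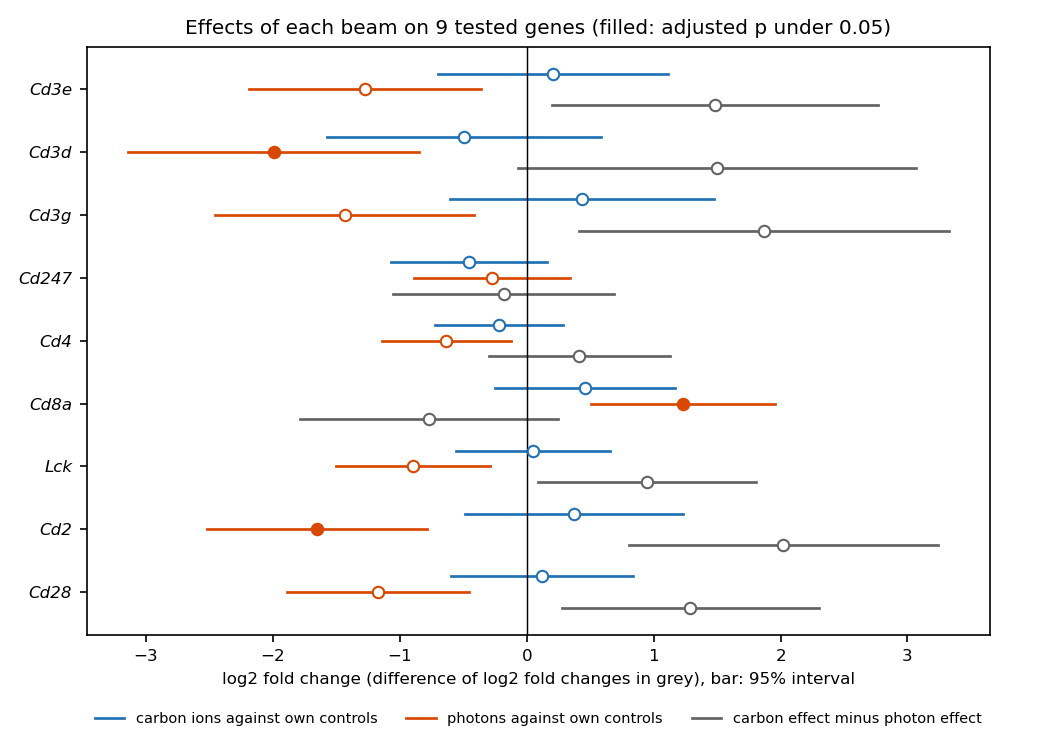
Log2 fold changes (points) with 95% intervals (bars) of the 9 tested genes for carbon ions against their controls (blue), photons against their controls (orange) and the difference between these effects (grey); filled points have an adjusted p under 0.05. Only Cd3d, Cd8a and Cd2 in the photon comparison are filled, and the carbon intervals all include 0.

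These 3 photon calls were near the threshold and depended on single libraries. Cd2 was called in 9 of the 16 fits that left out 1 photon-arm library, with adjusted p values between 0.0132 and 0.0909, and was lost without controls 1, 3, 5 or 8 or irradiated replicates 1, 6 or 7. Cd3d was called in 5 of 16 (0.0276 to 0.112), namely without controls 2, 4, 6 or 7 or irradiated replicate 4, and Cd8a in 5 of 16 (0.0257 to 0.0973), namely without controls 2 or 4 or irradiated replicates 2, 4 or 5. Cd28 was called in 3 of 16 (without controls 2, 4 or 6, lowest adjusted p 0.0216) and Lck in 1 (without irradiated replicate 4, 0.0283), while Cd3e, Cd3g, Cd4 and Cd247 were called in none. The signs held in all of these fits. With the DESeq2 Wald test 5 of 9 members passed, Cd3d, Cd8a, Lck (adjusted p 0.0380), Cd2 and Cd28 (0.0233), beside 7.57% of all genes. Cd2 alone passed without the low-count filter, and Cd3d and Cd2 with the title letter as a term. A fit of the M-titled libraries alone called Cd3e (adjusted p 0.0446), Cd3d, Cd8a and Cd2. A fit of the photon arm alone called Cd3e (0.0255), Cd8a and Cd2, and its filter left out Cd3d and Cd3g, which were not tested there. Without the 3 libraries under 20000000 counts, Cd3d and Cd2 passed and Cd8a did not (log2 fold change 1.16, adjusted p 0.0945).

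**Figure D3:**
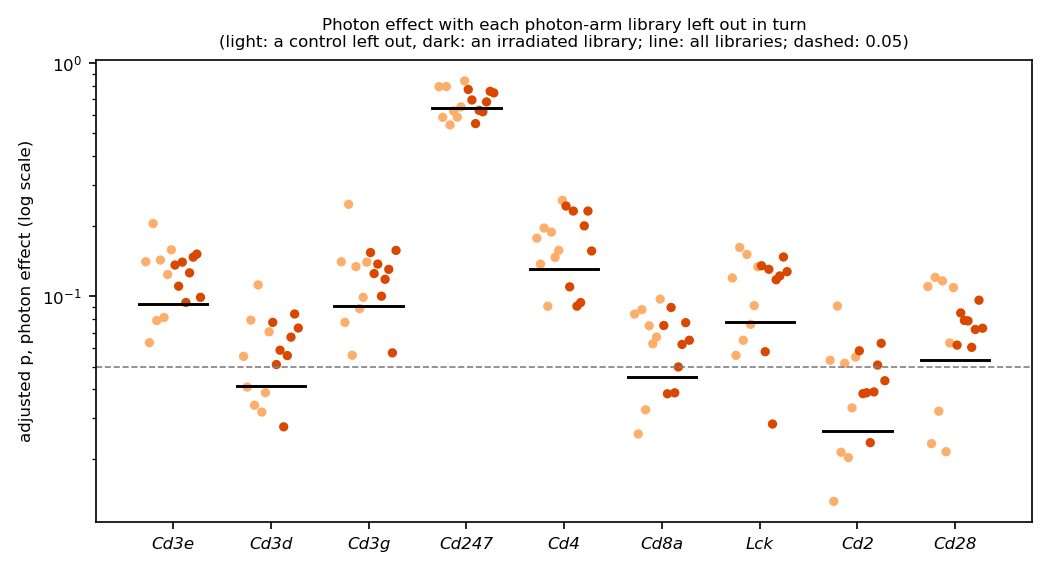
Adjusted p of the photon effect (log axis) for each of the 9 tested genes when 1 photon-arm library is left out (light: a control, dark: an irradiated library); the black line is the value with all libraries and the dashed line is 0.05. Cd2 has the most points under the dashed line, 9 of 16, and Cd247 lies far above it in all fits.

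Carbon ions were compared with the untreated tumours of their own arm in the same model. None of the 9 tested members passed, at an adjusted p or at an unadjusted p under 0.05, beside 0% of all genes called after adjustment and 5.75% before. DESeq2 called 0 of the 7 members to which it gave an adjusted p (all but Cd3g, Cd8a and Cd8b1), beside 0.153% of genes. The members' edgeR adjusted p values lay between 0.993 and 0.997, and the median log2 fold change was 0.12 (6 higher, 3 lower).

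In the carbon arm Cd3e held 0.114, 0.567 and 2.15 CPM (lowest, median, highest) in the controls and 0.146, 0.772 and 1.57 CPM after irradiation, a log2 fold change of 0.21 (95% interval -0.70 to 1.11). Cd3d went from a mean of 0.483 ± 0.414 to 0.344 ± 0.251 CPM and Cd3g from 0.166 ± 0.0886 to 0.218 ± 0.131 CPM (SD, n = 8), with log2 fold changes of -0.50 and 0.43. The control and irradiated ranges overlapped broadly for all 3 chains.

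Cd247 averaged 0.732 ± 0.305 CPM in untreated and 0.537 ± 0.247 CPM in carbon-irradiated tumours, with 7 of 8 irradiated libraries below the control median and a log2 fold change of -0.45 (95% interval -1.07 to 0.16). Cd4 went from 4.95 ± 2.15 to 4.24 ± 1.33 CPM and Cd8a from 0.241 ± 0.110 to 0.334 ± 0.238 CPM. Cd8b1 was at 0.0669 ± 0.0550 and 0.0442 ± 0.0472 CPM. These differences were within the spread of the libraries.

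Lck averaged 1.15 ± 0.664 CPM in untreated and 1.18 ± 0.250 CPM in carbon-irradiated tumours. All 8 irradiated libraries were above the control median of 0.861 CPM, but the highest value of the arm, 2.54 CPM, was that of a control, and the log2 fold change was 0.05 (SE 0.30). Cd2 went from 0.433 ± 0.220 to 0.571 ± 0.354 CPM and Cd28 from 0.659 ± 0.277 to 0.711 ± 0.265 CPM, log2 fold changes of 0.37 and 0.12.

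Within the carbon arm the title letters gave different values for Cd8a. With D titles alone its log2 fold change was 1.28 and with M titles alone it was -0.15, with adjusted p values of 0.999 and 0.954. The D-titled irradiated replicate 1 had the highest Cd8a of the arm, 0.884 CPM, and without it the log2 fold change over all libraries was 0.10. Lck (-0.30 with D titles, 0.45 with M titles) and Cd4 (0.03 and -0.36) also changed sign, and the other tested members had the same sign in both, apart from Cd3g, which passed the filter with M titles only. No member passed with either letter.

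The difference between the beams was tested as the carbon-ion effect minus the photon effect. No member passed at an adjusted p under 0.05, beside 0.0781% of all genes. Before adjustment 5 of 9 members had a p under 0.05, all higher for carbon ions, beside 13% of genes (7.82% higher). These were Cd2, Cd3g, Cd3e, Cd28 and Lck. Cd2 had the largest difference, 2.02 on the log2 scale (95% interval 0.80 to 3.24, edgeR adjusted p 0.133), and DESeq2 called it with an adjusted p of 0.0496, the 1 call among the 6 members to which it gave an adjusted p, beside 1.47% of genes. The differences were 1.87 for Cd3g (adjusted p 0.263), 1.50 for Cd3d (0.402), 1.48 for Cd3e (0.316), 1.29 for Cd28 (0.268) and 0.95 for Lck (0.338). For Cd8a the difference was -0.77 (95% interval -1.79 to 0.24), for Cd4 0.41 and for Cd247 -0.18. With M titles alone, the difference was 1.90 for Cd2 (edgeR adjusted p 0.233) and -1.38 for Cd8a (0.239). Of the markers of other cells none was called. The difference was above 0 for 8 of 8 macrophage markers (6 with an unadjusted p under 0.05), 5 of 5 neutrophil markers (4) and 5 of 5 skeletal muscle markers (2), and for 6 of 6 fibroblast, 5 of 5 endothelial and 4 of 4 tested lymph node markers, none with such a p. It was mixed in sign for the markers of NK cells, B cells, both kinds of dendritic cell, epithelium and skin. Their part in the members' values was not tested.

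By construction, the difference between the beams is the irradiated comparison minus the control comparison, which for Cd2 is 0.78 minus -1.24. Carbon-ion controls were set against photon controls, and 0 of 9 members passed after adjustment, beside 9.14% of all genes. Before adjustment 4 members had a p under 0.05, all lower in the carbon-ion controls, beside 23.1% of genes (11.3% lower). Cd2 averaged 0.433 ± 0.220 CPM in the former and 1.01 ± 0.634 CPM in the latter, a log2 fold change of -1.24 (SE 0.42, edgeR adjusted p 0.0548). Cd28 averaged 0.659 ± 0.277 and 1.28 ± 0.770 CPM, a log2 fold change of -0.97 (SE 0.35, adjusted p 0.0730). Cd3g (-1.27, adjusted p 0.103) and Lck (-0.72, adjusted p 0.128) were the other 2. DESeq2 called Cd2 and Cd28 in this comparison, with adjusted p values of 0.0337 and 0.0491, beside 10.8% of genes. In edgeR, Cd2 passed without carbon-ion control 5 or photon controls 2 or 4 (lowest adjusted p 0.0260), Cd28 without photon controls 2, 4 or 6 (0.0369) and Lck without carbon-ion control 2 (0.0365). With M titles alone the log2 fold changes were -0.99 for Cd2, -1.10 for Cd28, -1.24 for Cd3g and -1.05 for Lck, and none passed. In the same comparison the log2 fold change was below 0 for 6 of 6 fibroblast markers (2 called) and 5 of 5 endothelial markers (none called), and above 0 for 5 of 5 epithelial markers (1 called). The part of these markers in the members' values was not tested.

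The irradiated groups were compared in the same way. Carbon-irradiated minus photon-irradiated log2 fold changes lay between -0.50 for Cd8a and 1.15 for Cd3d, and none of the 9 members had a p under 0.05, adjusted or not, beside 5.08% and 25.2% of all genes. DESeq2 called 0 of the 7 members to which it gave an adjusted p, beside 10.5% of genes. Both comparisons share their groups with the beam effects above, so they are not separate evidence. The arm of a tumour and anything else that differed between the arms cannot be told apart in this design. Between the irradiated groups, 8 of 8 macrophage (4 called) and 5 of 5 neutrophil markers (3 called) had log2 fold changes above 0. So did 5 of 5 skeletal muscle markers and all tested epithelial, NK cell and B cell markers, with none called. Fibroblast, endothelial, lymph node, skin and both kinds of dendritic cell markers were mixed in sign. The part of the markers in the members' values was not tested.

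Ratios between members of the same library ask whether 2 genes moved by unequal amounts. Values are log2 ratios of CPM, compared between groups of libraries by exact permutation (two-sided) and adjusted over 15 tests (3 ratios, 5 comparisons). For the difference between the beams, each arm was first centred on its own mean. Beam labels were then reassigned within irradiated and within untreated libraries, so the p of this centred permutation is approximate. Cd8a to Cd4 was at -4.31 ± 0.654 in the photon controls and -2.54 ± 1.13 after photons (SD, n = 8). The controls ran from -5.05 to -2.96 and the irradiated libraries from -4.11 to -0.62, with 8 of 8 irradiated libraries above the control median. The ratio rose by 1.77 (exact permutation p 0.00218, adjusted 0.0148) and passed in all 16 fits that left out 1 library. After carbon ions it differed by 0.50 (exact permutation, adjusted p 0.288). The carbon minus photon difference of -1.27 did not pass (centred permutation p 0.0477, adjusted 0.102). It did pass without carbon-ion control 2, photon control 4 or photon-irradiated replicate 2 (lowest adjusted p 0.0217).

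Cd247 to Cd3e compares the zeta chain with CD3 epsilon. It was at 0.36 ± 0.746 in the carbon-ion controls, -0.29 ± 0.692 after carbon ions, -0.61 ± 0.387 in the photon controls and 0.44 ± 0.831 after photons (SD, n = 8). The ratio rose by 1.05 after photons (exact permutation p 0.00295, adjusted 0.0148), with 7 of 8 irradiated libraries above the control median. It differed by -0.65 after carbon ions (exact permutation, adjusted p 0.139), and 1 of 16 fits passed there, the one without carbon-irradiated replicate 2 (-0.84, adjusted p 0.0423). The carbon minus photon difference of -1.71 passed (centred permutation p 0.00107, adjusted 0.0148). It also passed in all 32 fits with 1 library left out and with M titles alone (-2.09, adjusted 0.00344). The untreated groups differed in this ratio as well, by 0.97 with the carbon-ion controls higher (exact permutation p 0.00451, adjusted 0.0159). Without the 3 libraries under 20000000 counts the rise after photons was 0.86 and did not pass (exact permutation, adjusted p 0.0752). The carbon minus photon difference without them was -1.51 and passed (centred permutation, adjusted p 0.0257).

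Cd8b1 to Cd8a compares the chains of the CD8 dimer and rests on 0 to 10 counts of Cd8b1 per library. It was at -0.62 ± 1.05 in the photon controls and -2.35 ± 0.961 after photons (SD, n = 8), with 8 of 8 irradiated libraries below the control median. The ratio fell by 1.73 (exact permutation p 0.00528, adjusted 0.0159). With libraries at a count of 0, these values also depend on the prior count of 2 added to each gene. With a prior count of 0.5 the change after photons was -2.26 (exact permutation, adjusted p 0.049), just under the threshold. With the prior count of 2, the ratio differed by -0.58 after carbon ions (exact permutation, adjusted p 0.275).

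**Figure D4:**
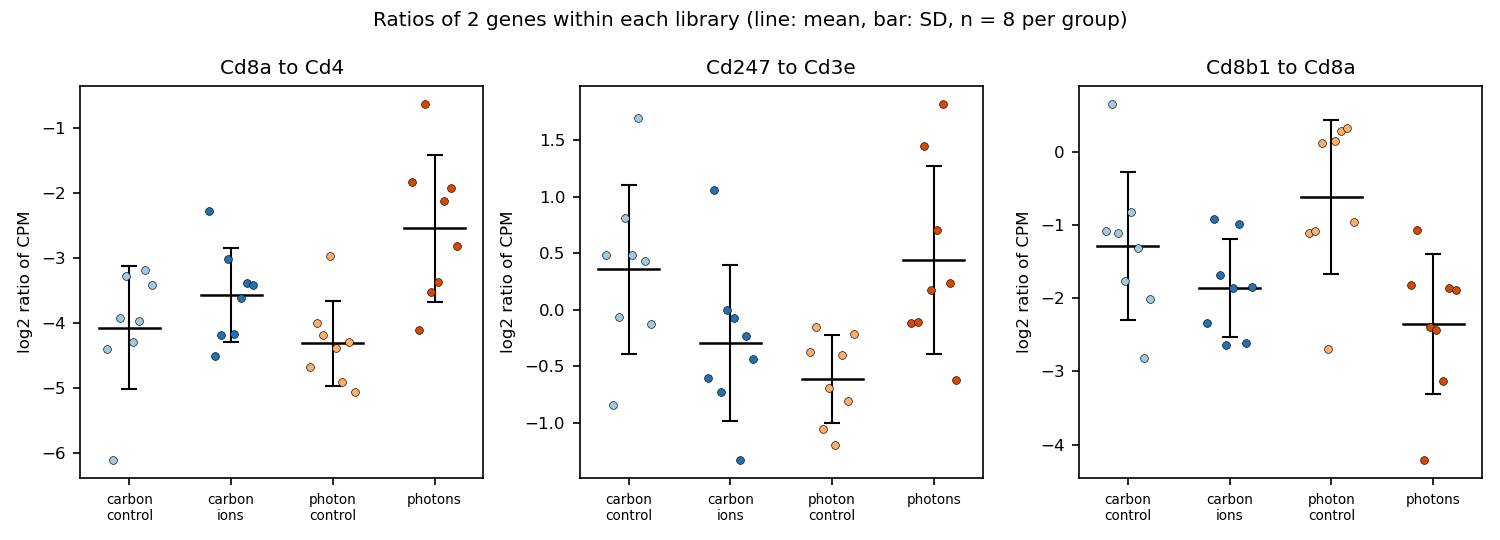
Log2 ratios of CPM between 2 genes of the same library (points), by group, with mean (line) and SD (bar, n = 8 per group). Cd8a to Cd4 is highest after photons, Cd247 to Cd3e is lowest in the photon controls, and Cd8b1 to Cd8a is lowest after photons.

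The genes that work with the receptor were counted in 5 lists, to be read beside the 50.1% of all tested genes with a photon log2 fold change below 0 and the 3.81% called. Of 20 genes of signalling downstream of the receptor, 18 had a photon log2 fold change below 0 and 2 above it, 2 were called lower and none higher, and the median was -0.45. Among the called genes, Sla, an adaptor that dampens receptor signalling, fell from 24.8 ± 7.08 to 15.2 ± 5.11 CPM (SD, n = 8, edgeR adjusted p 0.0470). Ptprc, the CD45 phosphatase of all leukocytes, had a log2 fold change of -0.54 (adjusted p 0.0534) and Rasgrp1, an activator of RAS, of -0.40 (0.106). Sla and Ptprc are transcribed by other leukocytes too.

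Of 11 tested genes of the T cell surface and co-stimulation, all 11 had a photon log2 fold change below 0 (median -0.51) and none was called. Ctla4, the inhibitory counterpart of CD28, had a log2 fold change of -1.52 (edgeR adjusted p 0.0597), Icos, an inducible co-stimulator, of -1.22 (0.119), Cd6 of -1.02 (0.103) and Il7r, the interleukin-7 receptor, of -0.84 (0.136). The 4 ligand genes Cd80, Cd86, Cd48 and Icosl were also below 0 with none called, Cd48 being the furthest at -0.61 (0.0615).

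The constant regions of the receptor chains themselves were counted too. Of 7 constant genes 4 were tested, and their photon log2 fold changes were -0.41 for Trac, -0.30 for Trbc1, -0.16 for Trbc2 and -0.31 for Trdc, with none called. The others were too low for the filter. In photon controls and after photons they averaged 0.188 ± 0.108 and 0.0174 ± 0.0220 CPM (Trgc1), 0.0638 ± 0.0440 and 0.0242 ± 0.0312 (Trgc2), and 0.0786 ± 0.0528 and 0.0557 ± 0.0439 (Trgc4). Trbc1 and Trbc2 are near-identical copies, so their reads can be divided between them in more than 1 way. Trbc2 averaged 0.856 ± 0.377 CPM in untreated tumours of the arm and 0.761 ± 0.219 CPM after photons (SD, n = 8), a difference within the spread.

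Of 11 tested transcription factors of T cells 3 were above 0 and 8 below, with none called. Bcl11b, which sets T cell identity and is also active outside it, averaged 8.25 ± 1.84 CPM in untreated and 12.3 ± 2.79 CPM in irradiated tumours (adjusted p 0.0622 by edgeR). Satb1, a chromatin organiser, had a log2 fold change of -1.01 (0.0787), Ikzf3 of -1.06 (0.152) and Zbtb7b, a factor of the CD4 lineage, of 0.18 (0.134). Zbtb7b averaged 90.9 ± 6.76 CPM in the photon controls, where Cd3e averaged 1.12 ± 0.443 CPM (SD, n = 8). The lists therefore need not report on T cells alone. After carbon ions edgeR called no gene of these 5 lists, and 4 genes, 1 in each list but the transcription factors, had an unadjusted p under 0.05, beside 5.75% of all genes. The carbon medians lay between -0.15 for the transcription factors and 0.22 for the ligands.

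**Figure D5:**
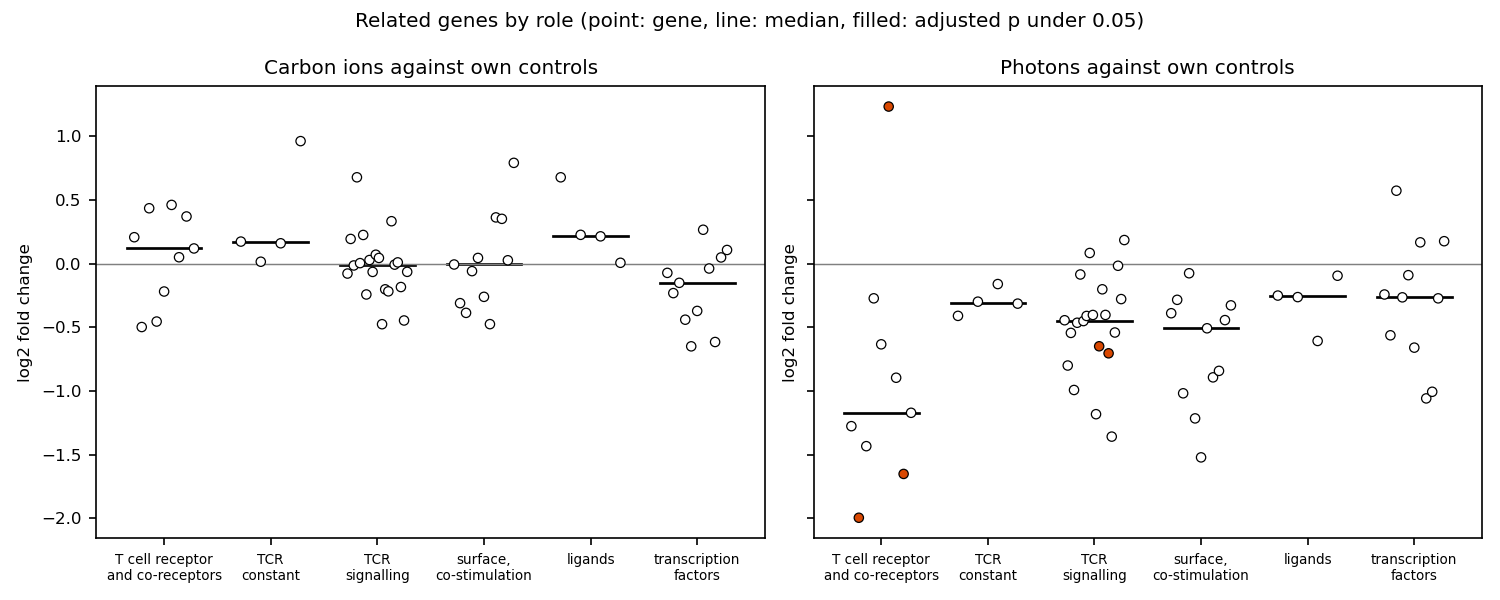
Log2 fold changes of each tested gene (points) and the list median (line) for the 10 chosen genes and 5 lists of related genes, after carbon ions (left) and photons (right); filled points have an adjusted p under 0.05. In the photon panel nearly all points lie below 0, with Cd8a as the highest point, and in the carbon panel no point is filled.

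Markers of other cells were counted in the photon comparison in the same way. All 8 macrophage markers had a log2 fold change below 0 and Csf1r was called (-0.54, edgeR adjusted p 0.0260), and their summed level ran from 634 to 1326 CPM in the controls and from 391 to 899 CPM after photons. All 5 neutrophil markers were below 0 (median sums 43.2 and 23.1 CPM), with Csf3r (-0.79), Cxcr2 (-0.93) and Retnlg (-1.89) called. All 4 markers of type 1 conventional dendritic cells, which in mice can carry Cd8a, were below 0, with Batf3 (-0.83) and Wdfy4 (-0.70) called, and summed to 27.7 to 79.1 CPM in the controls and 17.6 to 38.9 CPM after photons. Fibroblast markers (6 of 6 below 0, none called), endothelial markers (5 of 5, Tek called) and skeletal muscle markers (5 of 5, none called, median -3.10, summed 3.15 to 1160 and 0.963 to 300.5 CPM) also had log2 fold changes below 0. After carbon ions the 4 dendritic cell markers were below 0 as well (median -0.65, 2 with an unadjusted p under 0.05, none called). The other lists of this paragraph were mixed in sign after carbon ions.

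In the photon comparison the 5 epithelial markers were split 3 above and 2 below 0 (summed 2356 to 3873 and 2148 to 3828 CPM). NK cell markers had 1 of 4 tested above and 3 below 0 (median -0.39, none called), with summed levels of 3.54 to 8.30 CPM in the controls and 2.77 to 9.07 CPM after photons, and B cell markers summed to 0.889 to 1.83 and 0.653 to 1.81 CPM. Lymph node stroma and follicle markers had 3 of 4 tested below 0 (median -0.41, none called, summed 2.38 to 8.66 and 1.34 to 5.14 CPM). Skin keratinocyte markers had 2 of 3 tested above 0 (median 0.55, none called, summed 3.43 to 6.33 and 3.92 to 16.1 CPM). Plasmacytoid dendritic cell markers had 1 of 3 tested above 0, and the 1 tested thymocyte marker was above 0, with none called. No marker of these lists was at 0 in all libraries. The numbers in the library titles also divide the photon arm, since those of the controls and of the irradiated group do not overlap. Title number and treatment cannot be told apart in that arm. The part of tissue make-up and collection day in the photon result was not tested.

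Across the 32 libraries, with group means removed, most members varied together and Cd8a did not. The correlation of a member's log2 CPM with the mean of the other tested members was 0.785 for Cd3e, 0.749 for Cd2, 0.69 for Cd247, 0.583 for Cd3d, 0.552 for Cd28, 0.501 for Cd3g, 0.49 for Lck, 0.401 for Cd4 and -0.05 for Cd8a (Pearson r, a description of libraries that share depth and tissue make-up). The lowest pair was Cd8a with Lck at -0.523. For Cd247 the highest pair was Cd2, at 0.737.

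Outside the 10 genes, the 8 whose pattern was most like the members' mean by the same measure were Tnfrsf4 (r 0.875), Dock2 (0.852), Gvin-ps6 (0.846), Foxp3 (0.846), Gimap3 (0.845), Icos (0.841), Itga4 (0.828) and Rasgrp4 (0.823). Foxp3 is the defining factor of regulatory T cells, and Tnfrsf4, which encodes OX40, and Icos are co-stimulatory receptors. Their photon log2 fold changes were all below 0, between -1.22 for Icos and -0.59 for Dock2, and 1 of the 8 was called, Itga4 at -0.69 (edgeR adjusted p 0.0190). After carbon ions their log2 fold changes lay between -0.37 for Foxp3 and 0.30 for Gimap3, and none was called.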

How the data were processed

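The authors deposited 1 table of estimated counts per gene and library. Per the submitters' processing notes, the tools were FastQC 0.12.0, Trimmomatic 0.32 and RSEM 1.3.3 with build mm10, and the annotation and strand setting are not given in the sources used here. RNA had an integrity number above 7 and went into a stranded mRNA kit, per the labels' protocols. The planned count test was kept by rounding each value, which moved library totals by at most 0.00403%.

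Analysis used R 4.3.3 with edgeR 4.0.16 and limma 3.58.1: filterByExpr (minimum count 10), TMM scaling, and 1 quasi-likelihood model of 4 groups with 8 libraries each, adjusted by Benjamini-Hochberg over 20474 genes per comparison, threshold 0.05. SEs come from the F statistic, and intervals are 95%. CPM is the rounded count scaled by the TMM-adjusted library total. Ratios used log2 CPM with a prior count of 2 and exact permutation (12870 splits). The difference between beams used 165636900 reassignments of beam labels after centring each arm, an approximate test. Exon lengths and positions are from GENCODE for GRCm38. Alternatives were RLE and upper-quartile scaling, DESeq2 1.42.0, no filter, only the compared groups, M titles only and the title letter as a term. Each library was also left out, and ratios were recomputed with a prior count of 0.5. D titles only and leaving out libraries under 20000000 counts were added after seeing the data. The scripts were tested on simulated data.

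The 10 members are always named. Each related list is counted whole and named by at most 4 genes of smallest photon p, and the untested constant genes are named too. The 8 nearest genes are named by correlation, predicted genes passed over. Marker genes are named where called in the photon comparison. A gene of the signalling list is counted but not reported here by name. Members and lists were chosen with earlier results of these data known.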

Additional observations from a re-analysis of the deposited data

Results flagged for a closer look

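Among 52 sets of 8 log2 values (10 genes and 3 ratios in 4 groups), 6 held a lowest or highest library that lay apart from the other 7 (Dixon's 95% critical value for the gap over the range). Chance gives about 1 in 20. The values are given in CPM. In carbon-ion control replicate 1, Cd3g was at 0 CPM (next lowest 0.100), Cd247 at 0.182 CPM (next 0.530) and Cd2 at 0.0681 CPM (next 0.355). In photon-irradiated replicate 6 Cd3e was at 0.103 CPM, from 2 counts (next 0.326). Cd4 was highest in carbon-irradiated replicate 3 at 7.34 CPM (next 4.48), and the log2 ratio of Cd8a to Cd4 was lowest in carbon-ion control replicate 2 at -6.11.

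Which libraries stood apart differed with the scale. On the linear CPM scale, examined after seeing the data, 6 of 40 sets of gene values held such a library, the highest of its group each time, and Cd4 in carbon-irradiated replicate 3 was the 1 found on both scales. The others were Cd3e in carbon-ion control replicate 2 at 2.15 CPM (next 0.651), Cd3d in photon control replicate 5 at 1.61 CPM (next 0.824), Cd3g in photon-irradiated replicate 7 at 0.398 CPM (next 0.163), and Cd8a in carbon-irradiated replicate 1 at 0.884 CPM (next 0.349) and in photon-irradiated replicate 3 at 0.914 CPM (next 0.530).

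The effects of the beams differed in the log2 ratio of Cd247 to Cd3e, by -1.71 for carbon ions minus photons (centred permutation over 8 libraries per group, adjusted p 0.0148). Of that difference, 0.97 lay between the untreated groups.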

How the results depend on the processing

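No paired analysis was possible because the labels give no replicate numbers, and those used here follow accession order. Counts of genes called changed with the test, filter and samples. DESeq2 called 29 genes for carbon ions, 1550 for photons, 268 for the difference of the beams and 1989 between irradiated groups (edgeR 0, 781, 16 and 1041), with 5, 1 and 2 members for photons, the difference and the controls. Without a filter the counts were 431 for photons, with 1 member (Cd2), 4 for the difference and 319 between irradiated groups. Upper-quartile scaling called 94 for the difference. Only the compared groups gave 57 between irradiated groups. M titles alone gave 1 for the difference and 973 between controls, the letter term 1081 between controls and 502 between irradiated groups, and D titles alone 2 for carbon ions. Without libraries under 20000000 counts, photons gave 504, and the ratio of Cd247 to Cd3e changed by 0.863 without passing. The cause was not tested.

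Some signs turned. Cd4 between controls was 0.0061 with RLE scaling, 0.0046 with DESeq2 and 0.0104 with only those groups. Cd247 between controls was -0.0484 with the letter term. For carbon ions Cd8a was -0.149 with M titles (0.461 with all libraries), and with D titles Cd4 was 0.0264 and Lck -0.303.

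Leaving out 1 library gave 0 to 5 genes for carbon ions, 239 to 1656 for photons, 5 to 108 for the difference, 1178 to 2180 between controls and 108 to 2159 between irradiated groups, and 0 to 4 members for photons and 0 to 2 between controls. Log2 fold changes that turned ran from -0.0289 to 0.72 (Cd3e), -0.0599 to 0.317 (Lck) and -0.0139 to 0.232 (Cd28) for carbon ions, and from -0.636 to 0.0472 (Cd3d), -0.082 to 0.182 (Cd247) and -0.184 to 0.0993 (Cd4) between controls. The ratio of Cd8a to Cd4 ran from -1.56 to -0.996 for the difference and -1.26 to -0.758 between irradiated groups, Cd8b1 to Cd8a from 0.889 to 1.45 for the difference, and Cd247 to Cd3e from -0.845 to -0.460 for carbon ions and -0.928 to -0.538 between irradiated groups.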
